A study of Mus musculus with 4 samples.

Results

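The WD repeat genes of the mouse, with the DCAF genes among them, were examined in LSK cells (lineage-negative, cKit-positive and Sca1-positive cells, enriched for hematopoietic stem cells and early progenitors) sorted from fetal liver at E16.5. A gene was taken as a member when a probe set of its own carried an array name beginning with Wdr or Dcaf followed by a number. This gave 158 probe sets for 72 of the 20656 genes tested. Where a gene had several probe sets, the brightest on average over the 4 arrays stood for it. The array names are old, and all 72 begin with Wdr. Of these, 18 have another name today, and 8 of the 18 are now Dcaf genes. Current names are used here, with the array's name at first mention of a renamed gene.

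The embryos were of a C57BL/6x129 background, and both groups carried homozygous floxed Ddb1 alleles (DDB1 flox/flox). By the sample labels the control group was VavCre- and the Ddb1-deficient group VavCre+. A heat map of the study heads the controls as Vav1Cre+ instead, so that whether the controls carried Cre is not settled, and the labels were followed here. Vav1 is active in blood cells of all lineages, and its Cre is not specific to LSK cells. Each group had 2 samples with 1 Affymetrix array each. Values are RMA intensities, a background-corrected and normalized summary of probe brightness, on the log2 scale, and differences are Ddb1-deficient minus control. Nothing in the labels states whether a sample came from 1 embryo or a pool. The 2 samples of each group differed in sex, by Xist (1.93 and 10.1 in control, 2.15 and 9.96 in Ddb1-deficient cells). They were therefore not repeats of the same embryo. The p-values measure the spread between these samples, which holds this sex difference and may hold technical spread too.

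The WD repeat is a short motif that ends in tryptophan and aspartate, and several of them fold into a ring-shaped propeller on which other proteins dock. DDB1 joins the CUL4 ubiquitin ligase to such propellers: DDB1-CUL4-associated factors (DCAFs) bind DDB1 and present substrates to the ligase. Most WD repeat proteins work elsewhere, in ribosome assembly, chromatin complexes, cilia, autophagy or RNA modification.

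Ddb1, the deleted gene, gave 6.06 and 6.26 in control LSK cells and 4.58 and 4.33 in Ddb1-deficient cells, a difference of -1.70 (SE 0.20, limma adjusted p = 0.162). The groups did not overlap, in the direction of their labels, and whether this probe set lies in the deleted part of the gene is not given in the sources used here. Across all genes no adjusted p was below 0.133. The cells also differed in other markers. All 17 macrophage markers were higher in both Ddb1-deficient arrays, where their summed linear intensity was 20702 and 24699 against 3168 and 4858 in the controls. Of 9 myeloid granule and granulocyte markers 8 were lower in both, with sums of 1578 and 1562 against 12643 and 16949. Among 21 proliferation genes 13 were lower in both arrays and none higher. B lineage markers set the Ddb1-deficient arrays apart from each other, with sums of 4901 and 279 against 6559 and 9377 in the controls. Markers of other cells had higher sums in Ddb1-deficient cells: 2206 and 2645 against 411 and 994 for 8 erythroid genes, and 597 and 587 against 108 and 117 for 6 megakaryocyte genes. Of these, 6 erythroid and 4 megakaryocyte genes were higher in both arrays, and none was lower in both. Pf4 (log2 8.89 and 8.56 against 6.22 and 6.29 in control) weighs most in the megakaryocyte sum, and Gp1bb and Itga2b overlapped between the groups. The sums were 686 and 949 against 194 and 217 for 8 hepatoblast genes, and 157 and 174 against 52.1 and 66.9 for 10 endothelial genes. Of the hepatoblast genes 5 were higher in both arrays, and Hnf4a was lower (log2 1.81 and 2.46 against 4.90 and 4.65 in control). Trf (log2 8.91 and 9.39 against 6.19 and 6.33) weighs most in the hepatoblast sum. Of the endothelial genes 6 were higher in both arrays and none lower. The LSK markers Kit, Ly6a, Ptprc and Cd34 overlapped between the groups. The part of this cell makeup in the values that follow was not tested, and in sorted bulk cells fewer cells of a type and less RNA per cell cannot be told apart.

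No WD repeat gene stood apart from the other genes by the adjusted test. None of the 72 passed an adjusted p under 0.05 (limma with Benjamini-Hochberg adjustment), where 0% of all genes passed. At an unadjusted p under 0.05, 6 members were higher in Ddb1-deficient cells (8.33%, against 4.90% of all genes) and 3 were lower (4.17%, against 6.03%). The arrays of the groups overlapped for 44 members. Without overlap, 13 were higher in Ddb1-deficient cells (18.1%, against 22.5% of all genes) and 15 lower (20.8%, against 18.5%). The median difference was -0.04 over the members and 0.03 over all genes. The members' middle 50% ran from -0.38 to 0.38 and that of all genes from -0.24 to 0.26. Part of this width goes with brightness: 58 members (and 11770 of all genes) had a mean over the 4 arrays above 2.08, the median of all probe sets, and the middle 50% of all genes above it ran from -0.49 to 0.33. The shares depend on brightness as well. Without overlap, 19.0% of these 58 members were higher (against 19.8% of genes above the median) and 22.4% lower (against 25.5%). At an unadjusted limma p under 0.05 the shares were 10.3% higher (against 7.58%) and 5.17% lower (against 10.1%).

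The 8 members now called Dcaf had different values but no common direction. Genes that the array names otherwise and that are called Dcaf today are given further below. Dcaf8 (Wdr42a) and Dcaf12l1 (Wdr40b) were higher in both Ddb1-deficient arrays, and the other 6 overlapped between the groups. That is 25% higher, near the 22.5% of all genes and 19.8% of genes above the median of all probe sets. None was lower, against 18.5% and 25.5%. Dcaf8, a substrate receptor of the CUL4 ligase, gave 6.44 and 6.54 in control and 7.27 and 7.15 in Ddb1-deficient cells. That is a difference of 0.72 (SE 0.18, 95% interval 0.23 to 1.21, adjusted p = 0.316), or a ratio of 1.65. Its arrays agreed closely within each group. Dcaf12l1, an X-linked relative of Dcaf12, gave 1.86 and 1.80 in control, below the median of all probe sets, and 3.37 and 3.84 in Ddb1-deficient cells. The fitted difference was 1.77 (SE 0.24, adjusted p = 0.176). Its size depends on a control signal that was not shown to lie above background, and the gene has a mean above the median only through the Ddb1-deficient arrays, as does Wdr66. Sex was balanced between the groups, since Xist was near 10 on 1 array of each (10.1 and 9.96) and near 2 on the other (1.93 and 2.15).

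**Figure D1:**
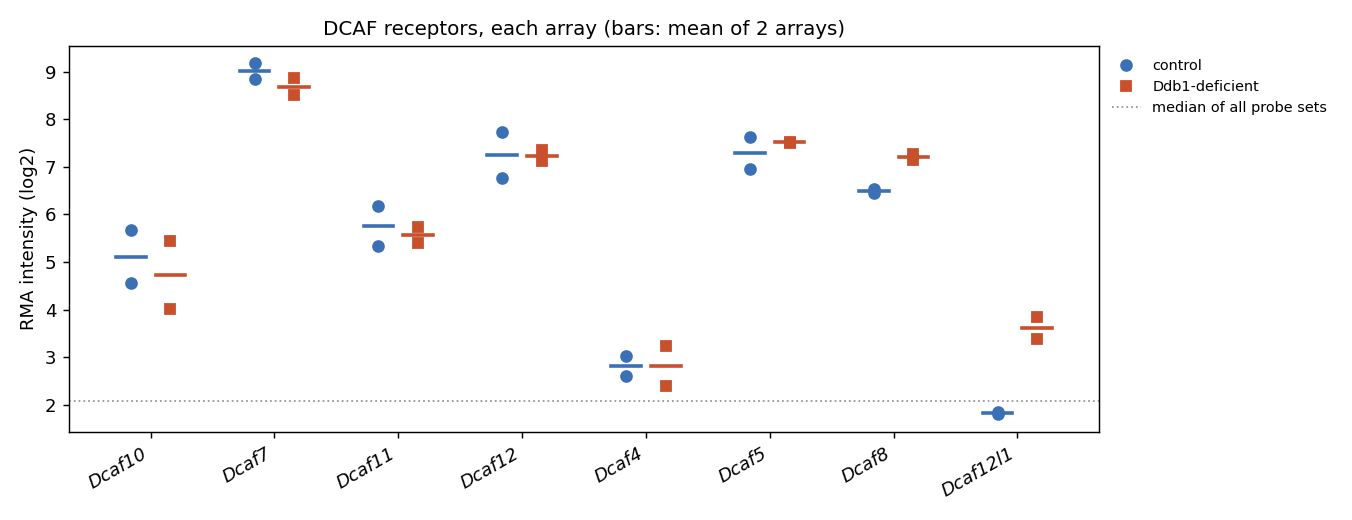
The log2 RMA intensity of the 8 DCAF receptors on each of the 4 arrays, with control arrays as circles, Ddb1-deficient arrays as squares and a bar at the mean of each group. In Dcaf8 and Dcaf12l1 the Ddb1-deficient arrays lie above the control arrays, whereas the other 6 overlap.

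Of the 6 overlapping receptors, Dcaf7 (Wdr68), known as a partner of the DYRK1A kinase, gave 8.84 and 9.17 in control and 8.51 and 8.86 in Ddb1-deficient cells. The 95% interval of its difference ran from -0.99 to 0.35. Dcaf5 (Wdr22) gave 7.63 and 6.95 against 7.53 and 7.51, and Dcaf12 (Wdr40a), which in human cells reads acidic C-terminal ends of proteins, gave 7.73 and 6.78 against 7.34 and 7.12. For both, the control arrays lay farther apart than the Ddb1-deficient arrays did. Dcaf11 (Wdr23), which in human and worm targets the NRF2 family for degradation, gave 5.34 and 6.17 against 5.40 and 5.73. Dcaf4 (Wdr21) gave 2.60 and 3.02 against 3.23 and 2.40, and Dcaf10 (Wdr32) gave 5.67 and 4.55 against 4.02 and 5.45. In Dcaf10 the 2 arrays of each group were over 1 log2 unit apart, and its interval ran from -2.24 to 1.48. At this spread a moderate difference in these receptors was not detectable.

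Outside the Dcaf names, 7 members had an unadjusted p under 0.05. Wrap73 (Wdr8), a centrosomal protein, had the largest difference of all 72: 3.22 and 2.68 in control against 5.66 and 3.99 in Ddb1-deficient cells (1.88, SE 0.65, adjusted p = 0.442). The Ddb1-deficient arrays differed from each other by nearly as much as the groups did, and without the first of them the difference was 1.04. Wdr4, the partner of Mettl1 in the tRNA guanosine methyltransferase, gave 3.43 and 2.71 against 3.85 and 4.05 (0.88, adjusted p = 0.457). A pair of cilium and flagellum genes lay near the median of all probe sets: Wdr66 gave 2.14 and 1.90 against 2.62 and 2.74 (0.66, adjusted p = 0.382). Wdr19, a subunit of the retrograde intraflagellar transport complex, gave 2.00 and 2.18 against 2.55 and 2.79 (0.58, adjusted p = 0.444). All 4 were higher in both Ddb1-deficient arrays, but for the cilium genes this rests on signals close to the array's median.

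The 3 members with lower signal had non-overlapping arrays as well. Poc1b (Wdr51b), a centriole protein, gave 4.93 and 5.34 in control and 3.89 and 4.07 in Ddb1-deficient cells, a difference of -1.15 (SE 0.23, interval -1.81 to -0.50, adjusted p = 0.262) or a ratio of 0.45. Wdr48, also known as UAF1, activates the deubiquitinases USP1, USP12 and USP46 and gave 6.98 and 7.09 against 6.41 and 6.34. Its difference of -0.66 (SE 0.17, adjusted p = 0.341) came with arrays that lay within 0.11 of each other in both groups. The other probe sets of Wdr48 overlapped between the groups. Wdr73 gave 3.67 and 4.99 against 2.72 and 2.60 (-1.67, SE 0.50, adjusted p = 0.395). This was the lowest difference of all 72, and its control arrays were farther apart than those of Poc1b or Wdr48. Without the second control array its difference was -1.01.

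**Figure D2:**
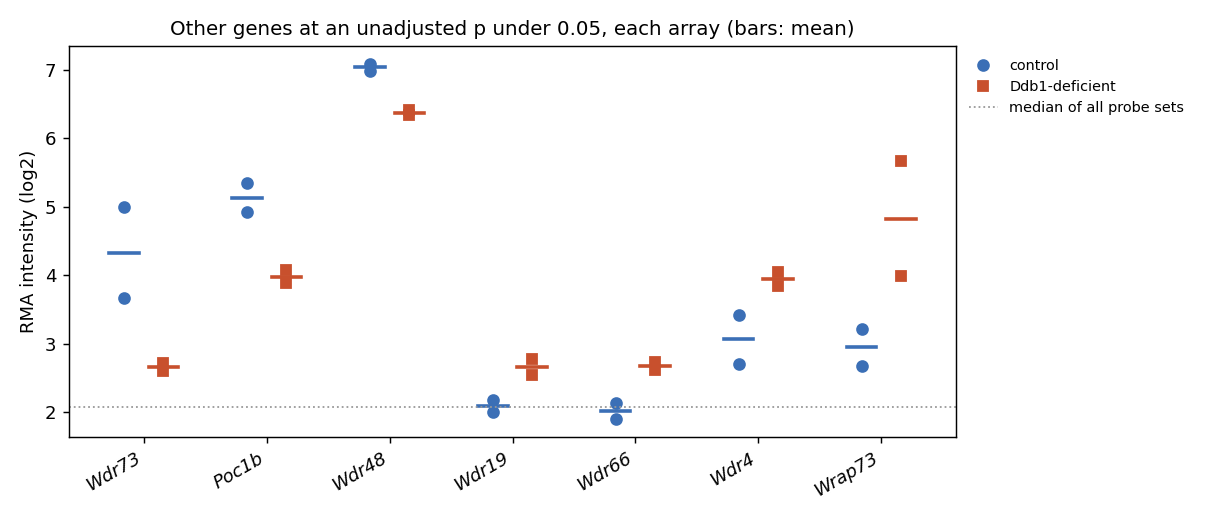
The log2 RMA intensity of the 7 other genes at an unadjusted p under 0.05 on each array, with control arrays as circles, Ddb1-deficient arrays as squares and a bar at each group's mean. In all 7 the groups are apart, by little in Wdr4 (3.43 against 3.85), and Wdr19 and Wdr66 lie near the dotted median of all probe sets.

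Grouped by role, every group held both positive and negative differences. The counts of members without overlap that follow can be read against 22.5% higher and 18.5% lower of all genes, and against 19.8% higher and 25.5% lower of genes above the median of all probe sets. Centrosome, spindle and actin genes held the extremes of both directions, with 4 of 7 (57.1%) higher and 2 of 7 (28.6%) lower in both Ddb1-deficient arrays. Among these, Wdr62 (1.56 and 1.24 in control against 2.12 and 1.65) and Wdr47 (2.17 and 1.80 against 1.74 and 1.45) lie below the median of all probe sets. Poc1b and its relative Poc1a (Wdr51a, with 3.15 and 3.26 against 3.48 and 3.81) are centriole genes too but were not on this list, and are counted among the others. Beside Wrap73 and Wdr73, the centrosomal Tbc1d31 (Wdr67) gave 4.54 and 2.64 against 5.18 and 4.89, and its control arrays were farther apart than the group means (1.45). Wdr1, which helps cofilin to disassemble actin filaments, gave 7.16 and 7.09 against 7.32 and 7.66 (0.37, adjusted p = 0.634). By another probe set above the median, with overlapping arrays, Tbc1d31 gave -0.12 and Wdr1 -0.27, and a further Wdr1 probe set gave 0.51. The 9 cilium genes had 3 members (33.3%) higher and none lower in both arrays, with a median of 0.22. Among them 3 lie below the median of all probe sets, where 26.1% of all genes were higher without overlap. Of 21 intraflagellar transport genes outside the WDR names, 5 were higher (23.8%) and 4 lower (19.0%) in both arrays, with a median of 0.01. Ift80 differed by -2.23 (limma adjusted p = 0.386), Tctex1d2 by -0.84 (adjusted p = 0.341) and Ift172 by 0.52 (adjusted p = 0.442).

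**Figure D3:**
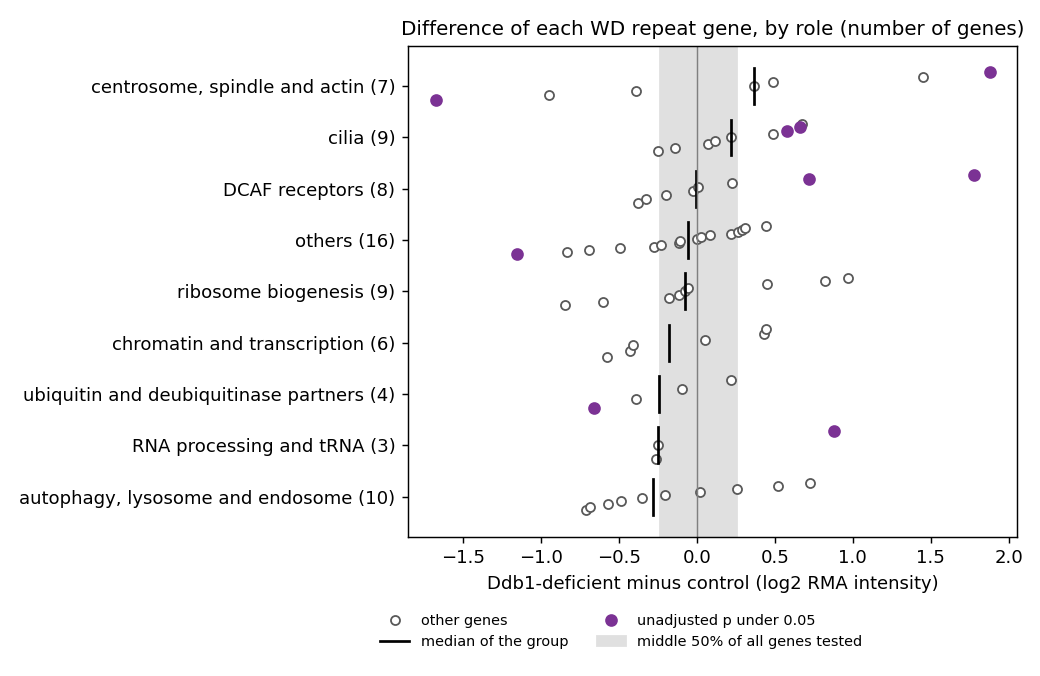
The difference between Ddb1-deficient and control cells in log2 RMA intensity for each of the 72 genes, 1 point per gene, by role. Filled points had an unadjusted p under 0.05, black lines are group medians, and the grey band from -0.24 to 0.26 is the middle 50% of all genes tested. The group medians lie between -0.28 and 0.37 and filled points fall on both sides of 0.

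Ribosome biogenesis was represented by 9 members, 6 of them in the negative and 3 in the positive direction, with a median of -0.07. Wdr12, part of the PeBoW complex of the large subunit, gave 8.39 and 7.88 in control against 8.08 and 7.83. Wdr3, a factor of small subunit assembly, gave 8.68 and 8.06 against 8.40 and 8.24. Both overlapped. Wdr36 was the 1 gene of the group that was higher in both Ddb1-deficient arrays (6.03 and 6.29 against 6.62 and 7.35, adjusted p = 0.495), and Wdr74 the 1 that was lower (5.48 and 4.49 against 4.01 and 4.27, adjusted p = 0.576). Wdr18, a member of the PELP1 complex, gave 2.93 and 2.18 against 4.16 and 2.88, so that its groups overlapped despite a difference of 0.97. Of 37 ribosome biogenesis factors outside the WDR names, 3 were higher (8.11%) and 14 lower (37.8%) in both arrays, with a median of -0.18. All 37 lie above the median of all probe sets, where 25.5% of genes were lower, and proliferation genes were lower in the same arrays, whose part was not tested. Among the 37, Nol6 differed by 1.18 (limma adjusted p = 0.290), Polr1b by -0.88 (adjusted p = 0.395) and Mphosph10 by -0.53 (adjusted p = 0.424).

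Among 6 chromatin and transcription genes none was higher in both Ddb1-deficient arrays and 3 were lower, where 25.5% of all genes above the median were lower. Wdr77, the partner of the arginine methyltransferase PRMT5, gave 7.35 and 7.06 in control and 6.49 and 6.77 in Ddb1-deficient cells (-0.57, adjusted p = 0.489). Wdr61, a subunit of the PAF1 and SKI complexes, differed by -0.41 and Wdr76 by -0.43. Wdr5, a core subunit of the MLL and SET1 histone methyltransferases, gave 5.01 and 4.30 against 5.79 and 4.41. Wdr82 varied most within a group of all chromatin members, with 7.14 and 4.21 in Ddb1-deficient cells and 5.82 and 4.68 in control. The 10 genes of autophagy, lysosome and endosome had 4 members lower (40%, against 18.5% of all genes) and 1 higher (10%, against 22.5%) in both arrays. Of the 10, 8 lie above the median of all probe sets, where 25.5% of genes were lower and 19.8% higher. The phosphoinositide-binding Wdr45b (Wdr45l) gave 5.41 and 5.91 against 5.39 and 4.51 (-0.71, adjusted p = 0.629). Wdr41, a partner of C9orf72, overlapped at 3.63 and 4.43 against 5.31 and 4.20.

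Wdr26, a subunit of the CTLH ubiquitin ligase, gave 10.42 and 10.59 in control and 10.51 and 10.94 in Ddb1-deficient cells (0.22, adjusted p = 0.816). With Wdr5, Wdr12, Wdr53, Wdr59, Wdr61, Wdr76, Wdr82 and Wdr5b it is among 9 members known from screens for DDB1-binding proteins. Of these 9, 3 were lower (33.3%, against 18.5% of all genes) and none higher (against 22.5%) in both Ddb1-deficient arrays, and the median was 0.02. Wdr53 was 1 of the 3, with 4.12 and 4.45 against 3.96 and 3.62 (adjusted p = 0.583). Of the 9, 8 lie above the median of all probe sets, where 25.5% of genes were lower and 19.8% higher.

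The rest of the ligase gave a comparison for these receptors. Besides Ddb1, the 5 other core genes overlapped between the groups: Rbx1 differed by -0.10, Cul4b by -0.09, Cul4a by 0.26, Dda1 by 0.42 and Det1 by 0.87. Of 31 candidate DDB1 receptors whose array names are not Wdr, 5 were higher (16.1%) and 12 lower (38.7%) in both arrays, with a median of -0.19. Of the 31, 29 lie above the median of all probe sets, where 25.5% of genes were lower. Grwd1 was the highest, with 7.15 and 7.23 in control against 8.88 and 8.88 (1.69, adjusted p = 0.156). Ddb2, the damaged-DNA receptor and in human a target of p53, gave 6.45 and 6.85 against 7.87 and 8.30 (1.44, adjusted p = 0.234). Dtl, the receptor that acts on PCNA-bound substrates in S phase, gave 7.59 and 7.50 against 6.81 and 6.17 (-1.06, adjusted p = 0.347), and Lrwd1, a partner of the origin recognition complex, differed by -1.59 (adjusted p = 0.285). Of 10 genes that carry a Wdr or Dcaf name only today, Dcaf6 (Iqwd1) gave 5.94 and 5.97 against 7.06 and 6.88 (1.01, adjusted p = 0.226), Dcaf13 (Wdsof1) differed by -0.80, Wdr11 by 0.32 and Dcaf15 by 0.18. Dcaf1 (Vprbp), a receptor that is also among the 31, gave 4.76 and 4.79 against 4.56 and 3.86 (-0.57, adjusted p = 0.612). Of these 10 genes, Dcaf6, Wdr11 and Dcaf15 were higher in both Ddb1-deficient arrays (30%, against 22.5% of all genes). Dcaf13 and Dcaf1 were lower in both (20%, against 18.5%). Above the median, where 8 of the 10 lie, 19.8% of genes were higher and 25.5% lower.

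Several genes depended on the probe set that stood for them. Of the 72 members 48 had more than 1 probe set, and 29 had several with a mean above the median of all probe sets. In 13 of these 29 such probe sets differed in sign, and in 4 genes (Poc1b, Wdr26, Wdr33 and Wdr77) the arrays were apart in opposite directions. The second Poc1b probe set gave 3.84 and 3.73 in control against 3.999 and 4.71, a difference of 0.57 where the first gave -1.15, although the file names the same source transcript for both. Of the 6 probe sets of Wdr26, 1 gave 0.93 and another -0.75, and the same transcript is named for these as well.

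Probe sets other than the brightest gave lower signals for some genes and higher for others. Of all 158 member probe sets, 34 were lower and 28 higher in both Ddb1-deficient arrays. Wdr6 had the largest fall, with 6.03 and 6.33 against 4.84 and 2.93 (-2.29) by its second probe set, and -0.26 by the first. In the other direction, Wdr44 gave 4.25 and 4.25 against 6.80 and 4.54 (1.42) by its second, where the first overlapped at -0.57. Dcaf5 gave 5.07 and 4.93 against 3.50 and 3.71 (-1.39) by its second probe set, and 0.23 by the first. Dcaf12 gave 3.46 and 3.57 against 1.62 and 2.16 (-1.63) by another of its 4, while the brightest gave -0.02. Wdr43, a small subunit processome factor, gave 7.57 and 7.50 against 6.20 and 6.61 (-1.13) by 1 probe set and 7.55 and 7.39 against 7.46 and 7.33 (-0.07) by the other. Wdr37 was lower in both arrays by 4 of its 7 probe sets, with differences from -2.08 to -0.68. The second probe set of Wdr73, also above the median, overlapped between the groups at 2.82 and 3.34 against 2.46 and 3.44 (-0.13, where the first gave -1.67). The Dcaf8 and Dcaf12l1 differences each rest on 1 probe set, because the second was below the median (-0.37 and 0.02). Wdr48 gave -0.67, -0.19 and -0.11 by its other 3, all with overlapping arrays. Its brightest is an _x_at probe set, and without _x_at and _s_at probe sets the gene is read by the one at -0.11. Since probe sets of 1 gene read the same RNA samples they are no replicates of each other, and which of them follows the transcript was not tested.

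**Figure D4:**
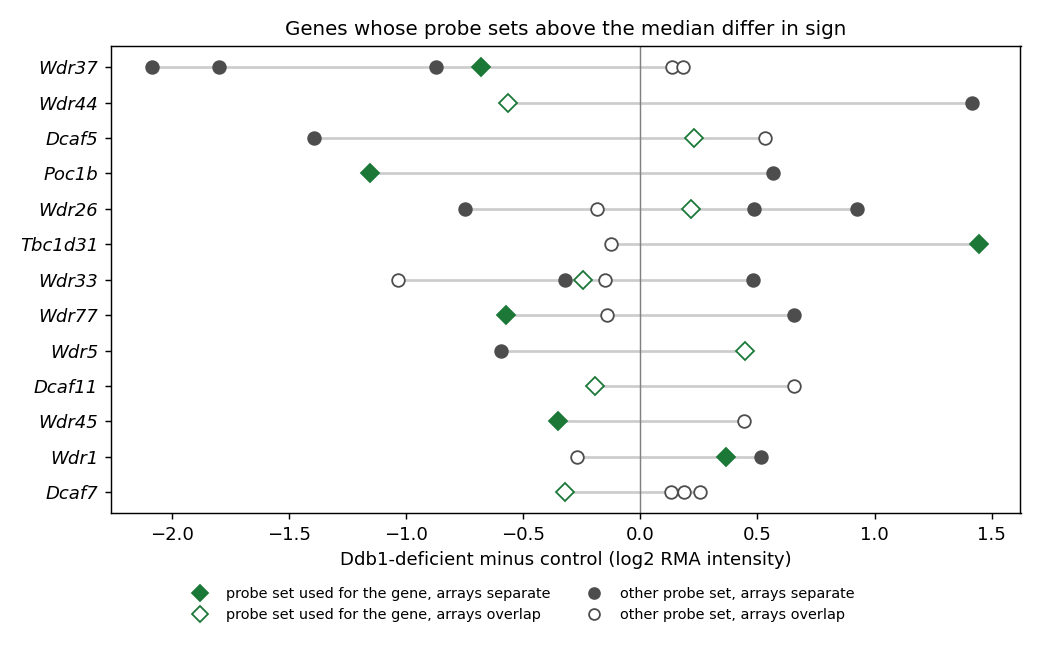
The difference between Ddb1-deficient and control cells in log2 RMA intensity for each probe set above the median, in the 13 genes whose probe sets differ in sign. Diamonds are the probe sets that stand for the gene, circles the others, and filled symbols have arrays that do not overlap. Wdr37 spans the widest range, and Poc1b has filled symbols on both sides of 0.

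Promoters were compared as a property that the choice of genes did not use. Of the 72 genes 60 were matched to the RefSeq promoter table (GRCm38.p6, from 250 bases before the start to 50 bases after it, the first listed start per gene). Member promoters had a median of 20 CpG dinucleotides, against 17 in 14296 promoters of genes tested. The ETS motif CCGGAAG, searched on both strands as were the others, lay in 18 of the 60 (30%) and in 14.0% of the genes tested. A GC box (GGGCGG) lay in 63.3% against 54.5%, and an E-box (CACGTG) in 13.3% against 9.14%. The TATA motif (TATAAA) lay in 1 of 60 against 9.88%. Of the 60 members, 49 lie above the median of all probe sets. Promoters of equally bright genes were not counted, so the part of brightness in these shares was not tested. A match in the letters is a description of the promoter and not a binding site.

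The 150 bases before the start are shown for the members with the smallest p in each direction, Dcaf12l1 and Dcaf8 (higher) and Poc1b and Wdr48 (lower), so that the starts of genes that differed in opposite directions can be set side by side. Capitals mark these motifs on either strand. The windows are chrX:44790198-44790347 on the minus strand for Dcaf12l1, chr1:172147865-172148014 on the plus strand for Dcaf8, chr10:99106932-99107081 on the plus strand for Poc1b and chr9:119894745-119894894 on the plus strand for Wdr48.
Dcaf12l1: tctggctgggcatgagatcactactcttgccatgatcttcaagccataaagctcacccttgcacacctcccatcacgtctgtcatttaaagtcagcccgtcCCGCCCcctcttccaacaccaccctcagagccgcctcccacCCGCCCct
Dcaf8: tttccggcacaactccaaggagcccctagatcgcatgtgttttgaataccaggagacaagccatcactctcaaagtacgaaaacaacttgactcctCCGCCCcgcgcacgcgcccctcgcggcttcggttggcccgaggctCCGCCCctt
Poc1b: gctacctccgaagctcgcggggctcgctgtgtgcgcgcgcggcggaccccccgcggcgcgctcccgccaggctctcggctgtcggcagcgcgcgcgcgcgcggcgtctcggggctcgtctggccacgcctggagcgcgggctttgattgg
Wdr48: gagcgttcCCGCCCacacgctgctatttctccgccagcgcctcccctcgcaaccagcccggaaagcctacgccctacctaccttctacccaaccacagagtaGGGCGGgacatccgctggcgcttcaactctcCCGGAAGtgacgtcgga
In these windows Dcaf12l1 and Dcaf8 each held 2 GC boxes, Wdr48 held 2 GC boxes and an ETS motif at its 3′ end, and Poc1b held none of the motifs but 29 CpG dinucleotides, against 5 in Dcaf12l1.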

How the data were processed

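The authors amplified 20 ng of RNA per sample in 2 cycles and normalized the arrays (MOE430 Plus 2) by RMA in GeneSpring, and the submitters' processing notes name RMA. The deposited intensity is linear RMA intensity per probe set, and its log2 was analysed. The deposited series matrix holds log2 values expressed against the controls' mean. A second deposited table gives the authors' p-value and fold change. These were not used, nor were 8 columns of sample values in it. Of 45101 probe sets 64 controls were dropped and 37463 carried 1 gene name, updated by Entrez ID with a RefSeq table (34158 matched).

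The limma test (3.58.1, lmFit and eBayes, R 4.3.3, no block) was run on all 20656 genes with Benjamini-Hochberg adjustment. It has 2 residual degrees of freedom plus a prior of 1.96. An exact permutation test of 2 against 2 arrays cannot go below p = 0.333, and the number of arrays limits the precision. Array medians were 2.03 to 2.09 (log2), and across probe sets r was 0.970 for the control and 0.940 for the Ddb1-deficient pair.

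The members, role groups and lists were chosen with earlier results of these data known. Named genes are all Dcaf genes, those the study names beside DDB1 binding, members with separate arrays at an unadjusted p under 0.05 whose higher group is above the median (up to 10 per direction), the 5 members with the highest mean and up to 4 of each role group, or up to 3 of each pathway list. Tbc1d31, Wdr6, Wdr33, Wdr36, Wdr37, Wdr44, Wdr45, Wdr47, Wdr61, Wdr62, Wdr76, Wdr82, Poc1a, Dcaf1, Dcaf6, Dcaf13 and Dtl were named after their values were seen. So were the markers Hnf4a, Trf, Pf4, Gp1bb and Itga2b. A planned search for the DDB1 contact motif in member proteins was not run.

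Alternatives changed the test (the methods' equal-variance test; eBayes with trend and robust; a replicate block; a difference of at least 0.5), the probe sets (above the median; the mean, the lowest or each of a gene's probe sets; without _x_at and _s_at), the values (series matrix; median-centred; quantile-normalized again), the gene names (not updated) and the arrays (each left out). Membership by current name was added after the values were seen.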

Additional observations from a re-analysis of the deposited data

How the results depend on the processing

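No member passed the adjusted threshold under any setting. The count of the 72 members with higher signal at an unadjusted p under 0.05 fell from 6 to 3 by the methods' test. It was 3 by eBayes with trend and robust, 3 by the lowest probe set and 2 of 58 with only probe sets above the median. Counted by probe set, 8 of 158 were higher and 11 lower at such a p, where 6 and 3 of the 72 members were. By separate arrays 28 of the 158 probe sets were higher and 34 lower, where 13 and 15 of the 72 members were. Shares over all probe sets or genes in these settings are not given here. Leaving out an array leaves 1 sample in a group, so no count at a p is given there. Of the 72 members, 20 to 25 were then higher and 20 to 30 lower without overlap, since fewer arrays overlap less. Numbers of replicates are shared by the groups, but deviations of same-numbered arrays did not go together (correlation 0.002 over all probe sets and 0.051 over member probe sets). The number goes with sex in both groups (Kdm5d was 7.39 and 6.86 in replicates 1, 1.43 and 1.67 in replicates 2). With the replicate block 5 members were higher and 3 lower at an unadjusted p, and none passed the adjusted threshold. Of these, 5 are among the 9 without the block (Dcaf12l1, Dcaf8, Poc1b, Wdr73 and Wrap73), 4 no longer had such a p (Wdr19, Wdr4, Wdr48 and Wdr66), and 3 had it only with the block (Wdr18, Wdr36 and Wdr37). Among settings with all 4 arrays and 1 value per gene, Dcaf12l1 lost its unadjusted p under 0.05 only by the lowest probe set. Poc1b lost it by the mean and the lowest. Wrap73 lost it only by the methods' test, but with 1 probe set its values could not change with the probe set. Wdr73 lost it by the methods' test, the mean and the lowest. Dcaf8 lost it by eBayes with trend and robust and by 3 probe set settings. Wdr66, Wdr48, Wdr4 and Wdr19 lost it by the block and several probe set settings. Genes with more probe sets had more settings in which to lose it, so these losses do not rank the genes.

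Single genes were followed through the settings only where the rule above had named them. Other members turned as well, such as Wdr44 (from -0.57 to 1.42) and Wdr45 (from -0.35 to 0.44) by the lowest probe set. Among the genes named by the rule, the sign turned by the lowest probe set for Dcaf11 (0.65), Dcaf5 (-0.32), Dcaf7 (0.25), Dcaf8 (-0.37), Poc1b (0.57), Wdr5 (-0.59) and Wdr77 (0.65). By the mean of all probe sets it turned for Dcaf11 (0.23), Dcaf5 (-0.33), Dcaf7 (0.0618) and Wdr5 (-0.0738), and without _x_at and _s_at probe sets for Dcaf11 (0.65). Centring the arrays turned Dcaf4 (-0.0335), and quantile normalization turned Dcaf12 (0.10), Wdr3 (0.0464) and Wdr43 (0.0387). Leaving out an array gave ranges across 0 for Dcaf10 (-1.09 to 0.34), Dcaf11 (-0.61 to 0.22), Dcaf12 (-0.50 to 0.46), Dcaf4 (-0.41 to 0.42), Dcaf5 (-0.11 to 0.57), Wdr12 (-0.43 to 0.0742), Wdr3 (-0.36 to 0.26), Wdr43 (-0.16 to 0.00667), Wdr5 (-0.24 to 1.14) and Wdr26 (-1.192e-05 to 0.43). None of these sign changes had passed a test, and the cause was not tested beyond the change of probe set or array itself.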
